A study of Pimephales promelas with 80 samples.

Results

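Whole larvae exposed to 6PPD-Q at 2.77 mg/L were compared with larvae exposed to 6PPD at 2.68 mg/L. The species is Pimephales promelas, the fathead minnow, a common freshwater species of toxicity tests. The members were chosen by the chemical and dose in the labels, and they are 10 of the 80 larvae of the series, 5 with each chemical. The series also holds 10 control larvae labelled with a dose of 0, and 60 larvae at other doses of 1 of the chemicals. Each library came from the RNA of 1 whole larva, so cells of all tissues are mixed, and a lower level can come from fewer cells of a type or from less RNA per cell. Larvae were 5 days old, counted from hatching in 1 label and from fertilization in another. They came from several crosses of the same culture and were pooled before being sorted to wells, where they spent a day unfed with DMSO as solvent. Whether the control wells held DMSO as well, and whether the doses are measured or intended concentrations, is not stated in the sources used here. The series asks whether the parent chemical or its quinone alters the larval transcriptome.

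6PPD is a para-phenylenediamine added to tire rubber, where it protects the polymer by reacting with ozone. 6PPD-Q is the quinone formed in that reaction, which reaches streams with road runoff and is acutely lethal to coho salmon, while the fathead minnow is known as a tolerant species. The quinone has 2 more oxygen atoms and 2 fewer hydrogen atoms than the parent. By mass its dose was 3.31% higher, and by moles it was 7.07% lower, at 9.29 µmol/L against 10.0 µmol/L.

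The libraries held 17.5 to 21.3 M counts in genes with 6PPD-Q and 16.8 to 26.1 M with 6PPD, where M is 10 to the power of 6. No difference between the groups was detected in 8 library measures, among them depth, genes detected and the share of reads outside genes (two-sided exact permutation tests, smallest p = 0.143, adjusted p = 0.730 over the 8). The smallest p that 5 larvae against 5 can give is 0.00794. Of all 80 libraries, 6PPD-Q replicate 3 had the lowest share of ambiguous reads (4.48%) and the highest TMM scaling factor (1.07). It also had the lowest share of counts in its 10 most counted genes (7.82%), and 13.4% of its reads lay outside genes. The exposures used several plates. The plate is read here from a letter in the sample code, an assumption, since the sample titles give the letter without a meaning. By that letter all 5 larvae with 6PPD-Q were on plate C, as were 4 of the 5 with 6PPD, and 6PPD replicate 1 was on plate A. Plate A holds 2 further larvae, both controls, so no comparison of the chemicals was possible within it, and values within plate C are given beside the main results. The gene identifiers come without names, so no marker could be looked up and the whole-body label could not be checked, and genes are described by identifier or rank, with no role. Levels are counts per M (CPM) and are not corrected for gene length, so they are compared between larvae, and an order of genes by CPM is one of counts and not of transcript abundance.

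At these near-equal doses the larvae with the quinone and the larvae with the parent differed in a broad set of genes. Of 21599 genes tested, 4265 (19.7%) differed, 1879 (8.7%) of them in the direction of higher levels with 6PPD-Q and 2386 (11%) in that of lower levels (edgeR quasi-likelihood F test, Benjamini-Hochberg adjusted p under 0.05, n = 5 and 5). Genes past this threshold are termed called. The differences were mostly moderate, with a median size of 0.70 on the log2 scale and quartiles of 0.50 and 1.03. A difference over 1 was found in 507 higher and 628 lower genes, over 2 in 84 and 116, and over 3 in 32 and 39. The median difference over all tested genes was 0.00, and 55.9% of the called genes were lower. That split depends on the scaling, because upper-quartile factors moved the median of all genes to 0.07 and gave 43.0% lower.

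The CPM values of the groups did not overlap in 2879 tested genes (13.3%), and 2483 of these were called, 970 higher and 1513 lower. They are 58.2% of the called genes, so in the other called genes at least 1 larva lay within the range of the other group. Within plate C, which leaves 4 larvae with 6PPD and 8 controls, 2888 genes were called, 1177 higher and 1711 lower, and 2779 of the 4265 kept their call and direction. Replicate 1 of 6PPD, on plate A, was the highest of its 5 larvae in 54.8% of the genes lower with 6PPD-Q and the lowest in 53.2% of those higher. For 6PPD replicate 4 these shares were 4.65% and 6.87%. With plate as a term in the fit of all libraries, 3844 genes were called, and 3697 of the 4265 kept their call and direction. Only 1 larva with 6PPD was on plate A, so within that group the parts of the plate and of that larva in the count cannot be told apart.

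**Figure D1:**
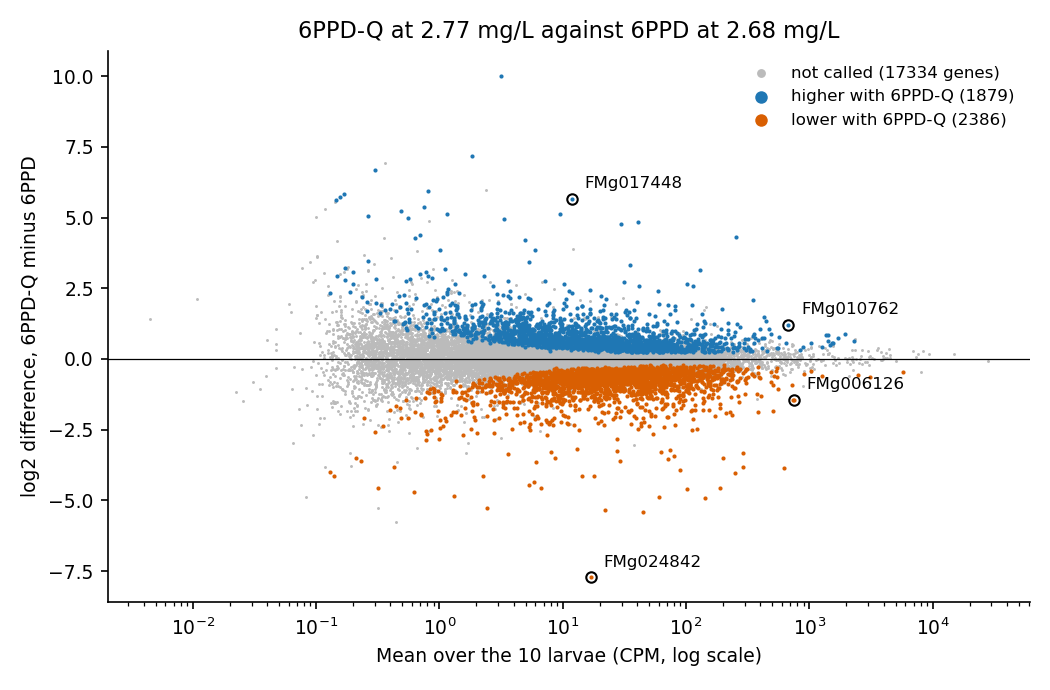
Log2 difference in CPM (6PPD-Q minus 6PPD) against the mean CPM over the 10 larvae (log axis) for the 21599 tested genes, with 1 point per gene, coloured where called and ringed for the 4 genes named in the text. The 1879 higher and 2386 lower genes are spread over the range of levels, and the called points beyond the named genes at low CPM are under the minimum of 5 CPM set for naming.

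The share of genes called, and its split by direction, varied with the level. Among genes under 1 CPM 114 of 2560 were called (4.45%), 77 of them higher with 6PPD-Q. From 1 to 10 CPM 1115 of 7339 were called (15.2%), with 614 higher and 501 lower. From 10 to 100 CPM 2598 of 10136 were called (25.6%), and here the lower genes were more, 1582 against 1016. From 100 to 1000 CPM 422 of 1462 were called (28.9%), 261 of them lower. Of the 102 genes over 1000 CPM 16 were called (15.7%), 11 higher and 5 lower. These shares were not tested against each other, and low counts give wide errors.

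Genes higher with 6PPD-Q took 11.0% ± 0.51 of the counts in tested genes in those larvae (SD, n = 5), 6.91% ± 0.82 in larvae with 6PPD and 10.3% ± 0.33 in controls (n = 10). Genes lower with 6PPD-Q took 9.29% ± 0.26, 15.6% ± 1.71 and 9.57% ± 0.17. The direction between the chemicals is fixed by the choice of genes. In both sets the share of the controls lay closer to that of the larvae with 6PPD-Q.

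Most genes were not called, and for many of them the data bound the difference. Of 17334 genes not called, 12376 (71.4%) had a 95% interval wholly within a log2 difference of 1 either way. With a mean of at least 5 CPM this held for 10071 of 11062 genes (91.0%), and the interval of genes at that level had a median width of 0.68. Below 5 CPM it held for 2305 of 6272, with a median width of 1.58, so differences over 1 in many weakly expressed genes could not be bounded at this depth. At an unadjusted p under 0.05 there were 6881 genes.

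The controls lie outside the contrast between the chemicals, although the model that gave the calls holds them. Their values lay mostly near those of the quinone. The control mean lay nearer the 6PPD-Q mean than the 6PPD mean, on the scale of log2(CPM + 1), in 3896 of the 4265 called genes (91.3%) and in 65.9% of all tested genes. It did so in 90.6% of the higher and 92.0% of the lower genes. In 3096 called genes (72.6%) the control mean lay between the means of the chemicals. It lay beyond that of 6PPD-Q in 1157 (27.1%) and beyond that of 6PPD in 12 (0.28%). Over all tested genes these shares were 47.2%, 34.9% and 17.9%. With the 6PPD-Q mean at 0 and the 6PPD mean at 1, the median position of the control mean was 0.15 in called genes. Over all tested genes it was 0.23. Of the larvae left out in turn, 6PPD-Q replicate 5 moved the share of 91.3% most, to 85.6%.

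**Figure D2:**
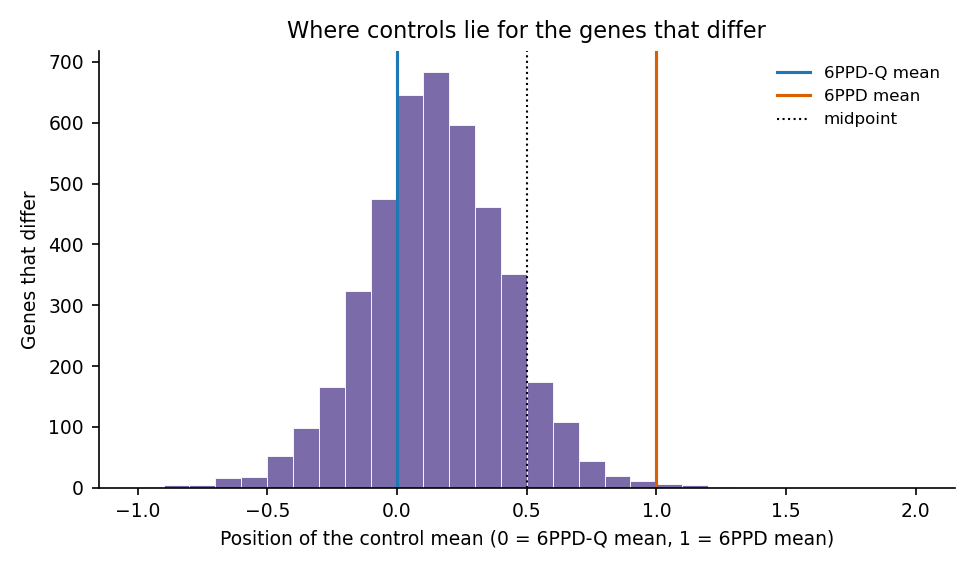
Number of called genes by the position of the control mean between the mean of 6PPD-Q (0) and the mean of 6PPD (1), in steps of 0.1 on the scale of log2(CPM + 1). The bulk lies to the left of the midpoint and around the line of 6PPD-Q, with a median of 0.15 and 12 genes beyond the line of 6PPD.

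Set against the same 10 controls, 4774 genes (22.1%) were called at 2.68 mg/L of 6PPD and 3 (0.0139%) at 2.77 mg/L of 6PPD-Q. Without replicate 1 of 6PPD the first count was 3151, within plate C it was 2958, and without replicate 5 of 6PPD-Q the second was 5. Both contrasts share those controls, so their values are only set side by side. For the 1879 genes higher with 6PPD-Q than with 6PPD, the median log2 difference from controls was 0.11 with 6PPD-Q and -0.56 with 6PPD. For the 2386 lower genes the medians were -0.10 with 6PPD-Q and 0.60 with 6PPD. In 369 called genes the controls lay nearer the 6PPD mean, 177 of them higher and 192 lower with 6PPD-Q. Their median difference between the chemicals was 0.59 in size against 0.71 for the other called genes, and 64 of them differed by more than 1.

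The whole profile of each larva was also set against the controls, a measure added after the counts of genes were seen. It is the root mean square of the log2 differences from the mean of the controls over 14678 genes of at least 5 CPM, with each control set against the other controls. The 5 larvae with 6PPD-Q lay at 0.338, 0.298, 0.445, 0.346 and 0.304, and the 5 with 6PPD at 0.721, 0.558, 0.501, 0.428 and 0.507, in order of replicate number. The highest larva with 6PPD-Q, replicate 3, lay above the lowest with 6PPD, and otherwise the groups were apart. The means were 0.346 ± 0.0588 and 0.543 ± 0.110 (SD), a difference of -0.197 (two-sided exact permutation p = 0.0159, adjusted p = 0.0317 over 2 pairs of doses). At the next lower pair, 6PPD-Q at 0.878 and 6PPD at 0.848 mg/L, the means were 0.341 and 0.356 (exact permutation p = 0.635). Controls lay at 0.295 ± 0.0330, from 0.253 to 0.351, and 4 of the 5 larvae with 6PPD-Q were within that range. Without 6PPD replicate 1, the larva farthest from the controls, the difference was -0.152 (exact permutation p = 0.0317).

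**Figure D3:**
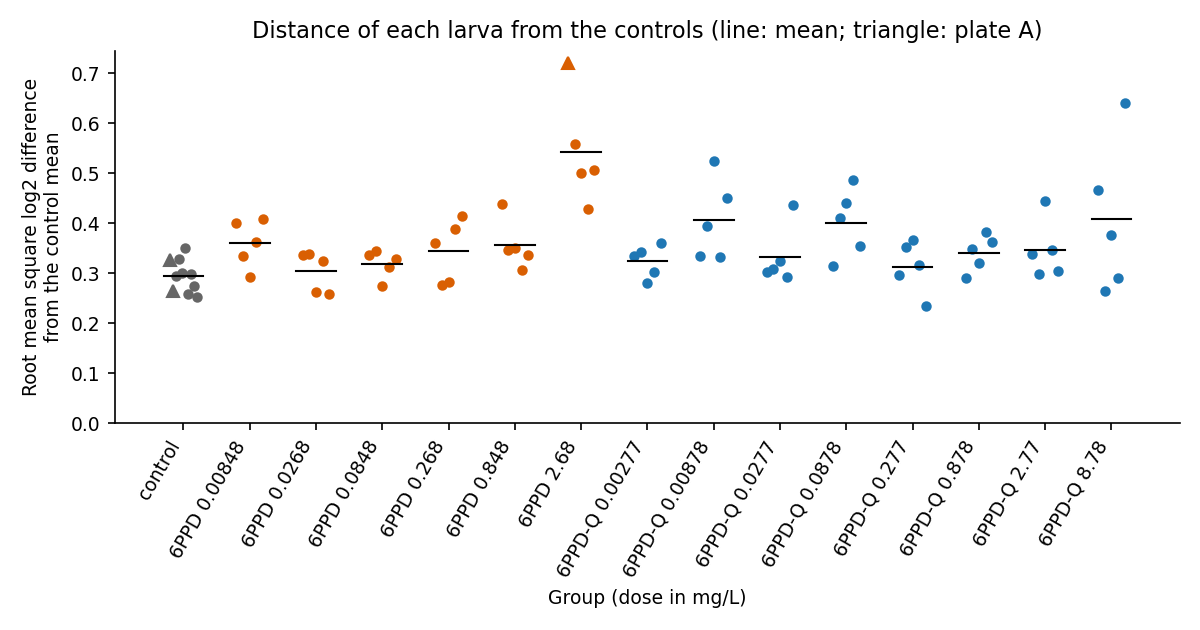
Root mean square log2 difference of each larva from the control mean, by group with the dose in mg/L, with 1 point per larva, a line at the group mean and triangles for plate A. At 2.68 mg/L of 6PPD the 5 larvae lie between 0.428 and 0.721, above all 10 controls, and at 2.77 mg/L of 6PPD-Q they lie between 0.298 and 0.445. Some larvae at other doses also lie between 0.428 and 0.721, up to 0.641 at 8.78 mg/L of 6PPD-Q.

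Among genes higher with 6PPD-Q, 782 were called with a mean of at least 5 CPM and no overlap between the groups, and the gene with the widest difference was FMg017448. It stood at 9.19, 28.0, 32.0, 39.2 and 7.66 CPM in the larvae with 6PPD-Q and at 0.151, 0.621, 0.260, 1.18 and 0.118 CPM in those with 6PPD. Every larva with the parent was below every larva with the quinone, and also below the lowest of 10 controls, which ran from 5.73 through a median of 10.6 to 40.1 CPM. The log2 difference between the chemicals was 5.67 ± 0.89 (SE, adjusted p = 1.17e-06), and 5.45 within plate C. From controls the gene differed by 0.47 with 6PPD-Q (adjusted p = 0.857) and by -5.19 with 6PPD (adjusted p = 1.71e-06). Single larvae at other doses of 6PPD-Q also fell below the lowest control, to 0.852 CPM at 0.0878 mg/L and 1.38 CPM at 0.878 mg/L.

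FMg010762 was the most counted, by mean CPM, of these higher genes that differed by more than 1 on the log2 scale. Its levels were 971, 887, 907, 981 and 993 CPM with 6PPD-Q and 218, 308, 417, 591 and 507 CPM with 6PPD, against controls from 628 through 894 to 1199 CPM. The larvae with the quinone lay close together inside the range of the controls, and all 5 with the parent lay under it. The log2 difference was 1.22 ± 0.18 (adjusted p = 3.25e-07), and 1.06 within plate C.

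Among the lower genes, 1412 met the same conditions, and the widest difference was that of FMg024842. It was near 0 outside the parent at 2.68 mg/L, reaching at most 1.94 CPM in any other larva of the series, with 0.0923, 0.332, 0.107, 0 and 0.270 CPM in larvae with 6PPD-Q, which are 0 to 6 counts, and from 0 to 0.988 CPM in controls. With 6PPD it stood at 41.3, 62.7, 9.11, 20.1 and 36.2 CPM, or 175 to 1111 counts. The groups lay far apart, and the log2 difference was -7.72 ± 0.93 (adjusted p = 1.14e-09), although its size rests on very few counts on the side of the quinone. Within plate C it was -7.64.

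FMg006126 was the most counted, by mean CPM, of these lower genes that differed by more than 1. It stood at 448, 440, 373, 394 and 352 CPM with 6PPD-Q and at 1274, 817, 1172, 928 and 1251 CPM with 6PPD. Controls ran from 207 through 285 to 408 CPM, so the larvae with the quinone lay in the upper part of that range or above it, and those with the parent were all well above. The log2 difference between the chemicals was -1.44 ± 0.25 (adjusted p = 1.28e-05), and -1.38 within plate C. From controls it was 0.47 with 6PPD-Q (adjusted p = 0.725) and 1.91 with 6PPD (adjusted p = 1.95e-11).

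**Figure D4:**
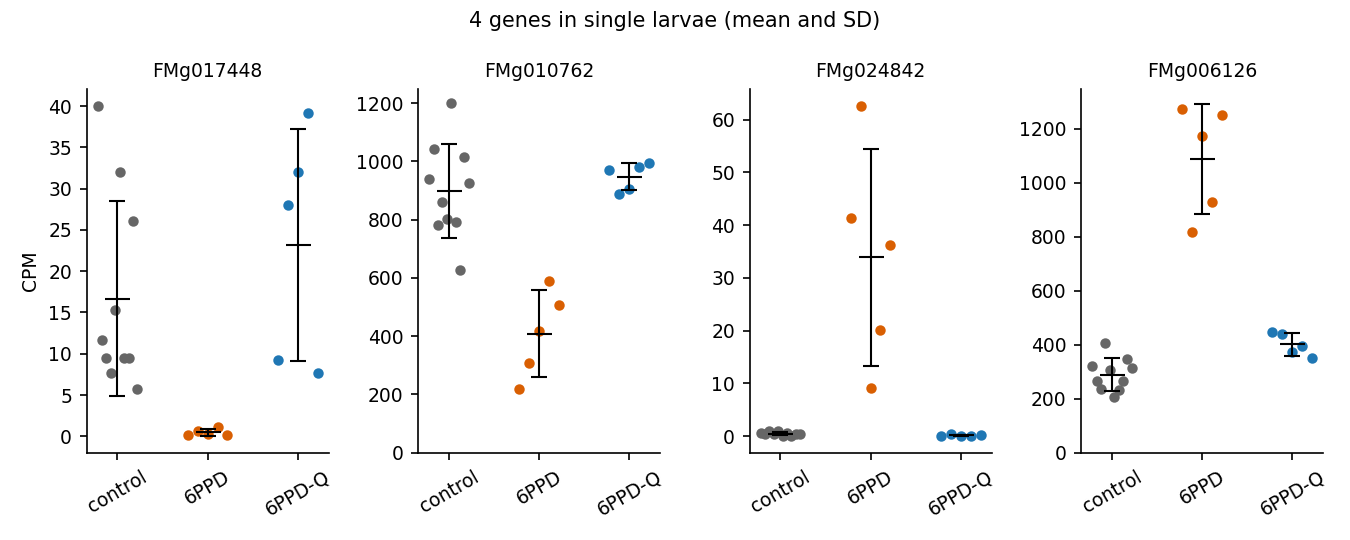
CPM of the 4 named genes in single larvae, with the mean and SD of 10 controls, 5 larvae at 2.68 mg/L of 6PPD and 5 at 2.77 mg/L of 6PPD-Q, each panel on its own linear axis. In each panel the larvae with 6PPD stand apart from both other groups, below them for FMg017448 and FMg010762 and above them for FMg024842 and FMg006126. The gap between the chemicals was a condition of naming these genes, and the place of the controls was not.

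The next genes are the 10 widest differences in each direction among those called with at least 5 CPM and no overlap. They show the same layout with 1 exception, and wider differences in genes that missed these conditions are not among them. In the 10 higher genes, with log2 differences of at least 2.65, the control mean lay nearer 6PPD-Q in 9, and in the 10 lower genes, with differences of at least 4.05 in size, in all 10. The gene of rank 3 among the higher ones stood at 79.1 ± 21.1 CPM with 6PPD-Q, 2.73 ± 1.90 with 6PPD and 78.4 ± 12.7 in controls. The mean of the quinone and that of the controls differed by less than 1 SD of either, while the 5 larvae with the parent, at 1.52 to 6.09 CPM, were all below the lowest control at 59.6 CPM.

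The exception is the higher gene of rank 4, in which the control mean lay nearer the mean of the parent. Its levels were 589, 417, 473, 544 and 394 CPM with 6PPD-Q and 25.8, 23.2, 14.7, 44.6 and 12.6 CPM with 6PPD, against 42.2 to 74.9 CPM in controls. No larva with 6PPD-Q came near the controls, while the highest larva with 6PPD lay just inside their range. The log2 difference between the chemicals was 4.32 ± 0.32 (adjusted p = 7.28e-18). From controls it was 3.08 with 6PPD-Q (adjusted p = 2.62e-16) and -1.24 with 6PPD (adjusted p = 0.000138).

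Among the lower genes, the one of rank 3 by level gave the smallest adjusted p of the 30 genes described. It stood at 44.5, 104, 91.2, 86.5 and 81.6 CPM with 6PPD-Q, at 1329, 1260, 1110, 786 and 1362 CPM with 6PPD, and at 75.8 ± 10.7 CPM in controls. The larvae with the quinone lay around the controls and those with the parent far above both (log2 difference -3.84 ± 0.19, adjusted p = 2.27e-26). The lower genes of rank 2 and 4 carry consecutive identifiers and had like profiles, at 2.06 against 86.9 CPM and at 3.93 against 116 CPM. In the lower gene of rank 5, 6PPD replicate 1 alone stood at 739 CPM and the other 4 at 43.4 to 77.4, against 5.35 to 10.6 with 6PPD-Q. Its difference of -4.60 was -2.90 within plate C (adjusted p = 0.000545).

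In 5 called genes all 5 larvae with 6PPD had a count of 0, and in no called gene did all 5 with 6PPD-Q. In each of these 5 genes at least 1 larva with 6PPD-Q had a count of 0 as well. Set against a floor of 3 counts over the group, their mean levels with 6PPD-Q were 9.83-fold to 213-fold higher. With counts this uneven between larvae, these folds depend on the floor chosen and are not firm lower limits. In the gene with 213-fold the levels with 6PPD-Q reached 315 counts in 1 larva and 0 in another, and 7 of 10 controls had a count, up to 17.0 CPM. In the other genes the highest count with 6PPD-Q was 13 to 46, and 2 to 10 of the 10 controls had a count. All 5 adjusted p-values lay between 0.0114 and 0.0428.

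Beside this upper pair of doses, the next lower pair, 6PPD-Q at 0.878 and 6PPD at 0.848 mg/L, used 10 other larvae, all of plate C. Far fewer genes differed there, 82 (0.38%), of which 11 were higher and 71 lower with 6PPD-Q, and DESeq2 called 132. Of the 82, 76 were called in the same direction at the upper pair, 67 lower and 9 higher, and none in the other direction. They are 92.7% of the list of the lower pair and 1.78% of that of the upper pair. The difference was larger at the upper pair in 62 of the 76, with a median size of 1.43 against 0.98.

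The genes of the upper pair mostly had the same direction in those other larvae, whether called there or not. Of the 4265 genes, 3503 (82.1%) had the same direction at the lower pair, the 76 called there included, against 63.9% of all tested genes. The median difference there was 0.15 for the genes higher at the upper pair and -0.16 for the lower ones. Of the genes called within plate C 86.1% had the same direction at the lower pair, and the share of 82.1% became 76.4% when 6PPD-Q replicate 4 of the lower pair was left out. At the 4 pairs below, from 0.277 against 0.268 mg/L downwards, the shares were 42.0%, 52.8%, 47.4% and 56.2%, against 44.4%, 54.6%, 50.1% and 52.1% of all tested genes, so they lay near those of all genes. Of the 21599 tested genes, 1, 27, 0 and 2 were called at these 4 pairs. Among the 4265 genes 1, 8, 0 and 0 were called there, of which 1, 1, 0 and 0 had the direction of the upper pair.

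Whether the difference between the chemicals itself changed between the 2 pairs was tested in the same model. It did in 521 genes (2.41%), with 163 higher and 358 lower at the upper pair, and 512 of them were among the genes called there. Of all tested genes 19.7% were called at the upper pair. That pair is a term of the change, so the overlap is in part built in. At an unadjusted p under 0.05 there were 3039. This count rests in part on 1 larva, since without 6PPD replicate 1 of the upper pair it was 230, and 228 within plate C. A gene called at 1 pair and not at the other is therefore, for most genes, not shown to differ between them.

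The named genes took different courses over the doses. FMg017448 at 0.848 mg/L of 6PPD stood at 6.24 ± 4.79 CPM and at 14.1 ± 13.6 CPM at 0.878 mg/L of 6PPD-Q (log2 difference 1.17, 95% interval -0.18 to 2.53, adjusted p = 0.874), and its difference changed between the pairs (adjusted p = 0.0114). FMg024842 was still at 0.302 ± 0.246 CPM at 0.848 mg/L of 6PPD, and its difference changed as well (adjusted p = 0.0112). Both genes were named for the widest difference at the upper pair, a choice that favours a called change. FMg006126 was called at the lower pair too, with 314 ± 75.3 CPM at 0.878 mg/L of 6PPD-Q and 840 ± 150 CPM at 0.848 mg/L of 6PPD. Its log2 differences were -1.42 (adjusted p = 0.000319) and -1.44, and the change between the pairs was -0.02 ± 0.35 (SE, adjusted p = 0.991). FMg010762 differed by 0.38 at the lower pair (adjusted p = 0.736), and its change between pairs missed the threshold (adjusted p = 0.0569).

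The 10 genes of each direction ranked by difference, under the same conditions of level and no overlap, all kept their sign at the lower pair. Among all called genes 82.1% did so. Of the 10 higher genes 2 were called there and of the 10 lower genes 3, and the difference changed between the pairs in 7 of each 10. Over all tested genes 0.38% were called at the lower pair and 2.41% for the change. The ranking used the upper pair, which is a term of that change, so the choice of genes favours a called change. The higher gene of rank 4 was among those called at both pairs. It stood at 523 ± 280 CPM at 0.878 mg/L of 6PPD-Q and at 46.7 ± 7.11 CPM at 0.848 mg/L of 6PPD, a log2 difference of 3.48 (adjusted p = 1.09e-13), and no change between the pairs was called (adjusted p = 0.308). At 0.878 mg/L 1 larva with 6PPD-Q stood at 86.6 CPM and the others at 457 to 843 CPM. This gene was also at 413 ± 118 CPM at 0.277 mg/L of 6PPD-Q, against 61.1 ± 12.8 CPM at 0.268 mg/L of 6PPD. The lower gene of rank 6 was likewise called at both pairs, with 11.8 ± 7.01 CPM at 0.878 mg/L of 6PPD-Q and 189 ± 97.2 CPM at 0.848 mg/L of 6PPD. At the upper pair it stood at 15.4 ± 11.4 and 365 ± 77.9 CPM, and in controls at 7.13 ± 1.83 CPM.

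6PPD-Q was also given at 8.78 mg/L, a dose with no counterpart of 6PPD, so values are only set side by side. There FMg017448 stood at 14.9 ± 2.82 CPM, FMg010762 at 733 ± 191 CPM, FMg024842 at 0.478 ± 0.686 CPM and FMg006126 at 470 ± 93.3 CPM. For FMg017448 all 5 larvae, and for FMg024842 4 of them, lay within the range of the controls. For FMg006126 the median larva, at 454 CPM, lay above the highest control at 408 CPM, and for FMg010762 the larvae ran from 560.0 CPM, under the lowest control at 628 CPM, to 1015 CPM. The lower gene of rank 6 reached 44.0 ± 18.0 CPM at that dose of the quinone, with its lowest larva at 16.8 CPM above the highest control at 10.2 CPM. The higher gene of rank 4 reached 1089 ± 266 CPM, with its lowest larva at 791 CPM against a highest control at 74.9 CPM.

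**Figure D5:**
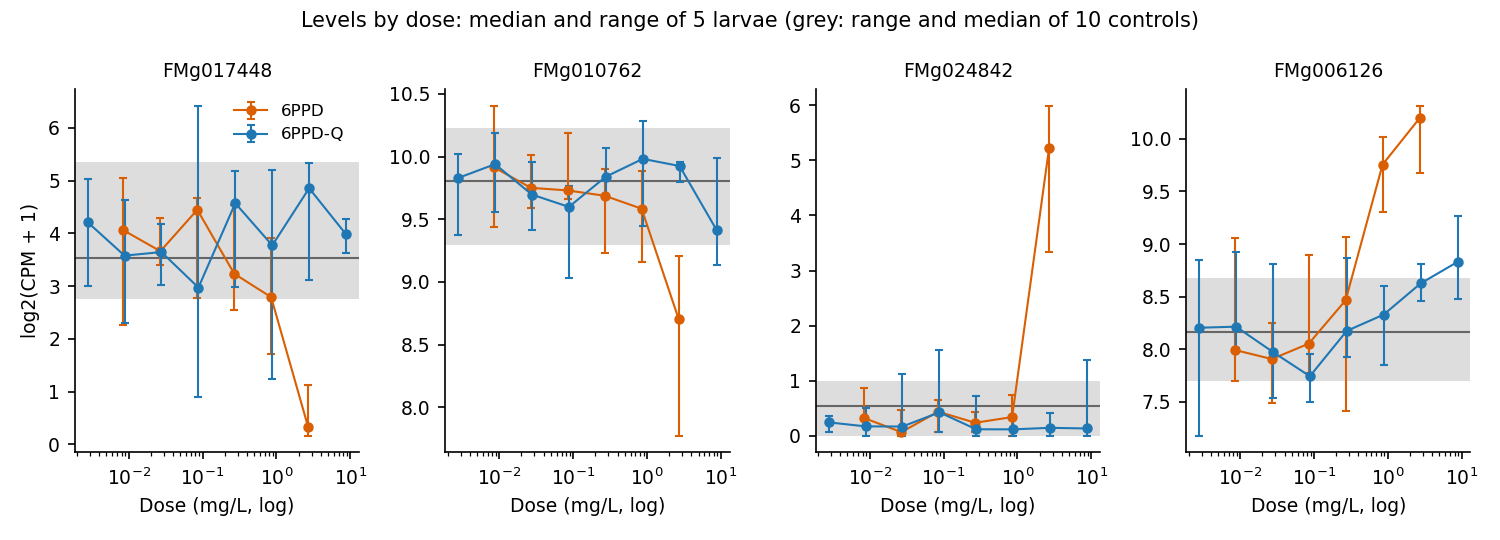
Median and range over 5 larvae of log2(CPM + 1) of the 4 named genes at each dose (mg/L, log axis) of 6PPD and 6PPD-Q, with the range and median of 10 controls in grey. At 2.68 mg/L of 6PPD all 4 genes lie outside the grey range, and FMg006126 does so at 0.848 mg/L of 6PPD as well.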

How the data were processed

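Per the labels' protocols, a SENSE mRNA kit (Lexogen) turned the RNA of each larva into a library. STAR 2.7.10a, HTSeq 0.13.5 and Trim Galore 0.6.6 are named in the submitters' processing notes, next to SAMtools 1.13 and edgeR, without a role or an order. The genome build, annotation and strand setting were not given in the sources used here. Raw read counts were deposited by the authors for 26150 genes in 80 libraries, with 5 lines that name no gene, which stayed out of library sizes and tests. In the 10 larvae compared, reads outside genes were 9.74% to 13.4% of the total. The deposited log2 tables were normalized separately for each chemical and were not used. Genes in near-identical copies, and overlapping or antisense genes, may share reads, so their counts are uncertain.

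Counts were fitted in 1 model of all 80 libraries and 15 groups with edgeR 4.0.16 in R 4.3.3 (TMM factors, filterByExpr by group, quasi-likelihood F test, Benjamini-Hochberg adjustment over 21599 genes, threshold 0.05). Adjusted p-values of genes are from this test where no other is named. CPM values use TMM-scaled library sizes, and standard errors derive from the F statistic. Positions of control means use log2(CPM + 1). The model was first tested on simulated data. Alternatives were DESeq2 1.42.0, limma 3.58.1 (voom), other scalings, filters and libraries. Exact permutation tests used scipy 1.17.1, and molar masses rdkit 2024.09.2.

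None of the 26150 identifiers matched the RefSeq gene table supplied (assembly fPimPro1.hap1.1, 64593 genes), so at most 2 identifiers per direction are printed. The rule took called genes with at least 5 CPM over the 10 larvae and no overlap between groups, first by difference, then by level among those differing by more than 1. The 10 largest by difference and the 5 most counted in each direction are described by rank. The comparison and the rules were chosen with earlier results of these data known. No pair of libraries of 1 group agreed within sampling noise (chi-square per degree of freedom at least 23.9 in 20 pairs). The labels call the larvae of a group biological replicates.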

Additional observations from a re-analysis of the deposited data

Results flagged for a closer look

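A test for a larva far from the rest of its group was made on 81 groups of values, of which chance flags about 1 in 20, and 3 were flagged. FMg017448 stood at 84.9 CPM in replicate 3 at 0.0878 mg/L of 6PPD-Q, where the next larva had 7.34 CPM. FMg024842 stood at 0.829 CPM in replicate 5 at 0.00848 mg/L of 6PPD, where the next had 0.357 CPM, and at 1.17 CPM in replicate 5 at 0.0277 mg/L of 6PPD-Q, where the next had 0.133 CPM. None of these 3 larvae belongs to the groups at 2.77 and 2.68 mg/L.

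The difference between the chemicals changed between the upper and the next lower pair of doses in 521 genes, by a test of that change itself.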

How the results depend on the processing

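The upper pair gave 4265 called genes and 3482 to 4645 under the other scalings, filters and tools and in fits with a plate term or of the groups compared alone. Without the plate A libraries 1177 genes were higher. Leaving out 1 larva at a time gave 2952 to 4578 genes, 1246 to 2108 higher and 1706 to 2470 lower. No shared deviation of same-numbered larvae was detected (correlations -0.17 to 0.10, 1 of 5 over 0.1). Larvae of different number gave -0.23 to 0.21. So few values cannot exclude a pairing by number. With a replicate block in a fit of the groups compared 2283 genes were called, 941 higher and 1342 lower. The block in the fit of all libraries gave 4088.

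The lower pair gave 82 genes, 132 with DESeq2 and 57 to 106 without 1 larva. The change between pairs gave 521, but 225 in fits of the groups compared, with or without the replicate block, 228 without plate A and 230 to 730 without 1 larva. 6PPD against controls gave 3139 with the replicate block, 2242 with the block in the groups compared, 2958 without plate A and 3151 to 4910 without 1 larva. 6PPD-Q against controls gave 12 with DESeq2, 7 in the groups compared, with or without the block, 1 with the block in all libraries and 2 to 5 without 1 larva. The replicate numbers of the controls run past those of the exposed groups. With the block, controls of those higher numbers each have a term of their own and add nothing to a contrast with controls. The counts with the block against controls therefore rest on fewer controls, and they do not show the part of a pairing alone.

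The share of called genes with controls nearer 6PPD-Q was 90.0% with upper-quartile factors, 90.4% in the groups compared, 93.6% with the replicate block there and 85.6% to 93.7% without 1 larva. The share with the same direction at the lower pair was 84.3% in the groups compared, 86.2% with the replicate block there, 84.4% with a plate term, 86.1% without plate A and 76.4% to 85.9% without 1 larva. The difference in distance from controls ranged from -0.225 to -0.152. Of the library measures, genes detected differed by -120 without 6PPD-Q replicate 3 (exact permutation p = 0.0476, range -120 to -57.1) and reads outside genes by 1.44 percentage points without 6PPD replicate 2 (exact permutation p = 0.0317, range 0.583 to 1.44). The causes of these shifts were not tested.

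For the 30 genes described, 1225 of 1226 alternative values kept their direction and call. The exception was the higher gene of rank 2, with an adjusted p of 0.12 by limma-voom, and none reversed. These genes were chosen for wide differences or high counts without overlap, so they do not stand for the whole list. Of all called genes 65.2% kept call and direction without the plate A libraries. With the replicate block in the groups compared 49.9% did. With 5 larvae a group, differences in genes under 5 CPM have wide intervals.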

Other observations

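Identifiers that follow each other were called together somewhat above the rate of all genes. Of genes called higher with 6PPD-Q whose next identifier was tested, 11.1% had that neighbour called higher as well, against 8.70% of all tested genes, and of the lower genes 13.8% against 11.0%. The files do not say whether consecutive identifiers lie side by side in the genome, and the excess was not tested.

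The median over genes of the SD of log2(CPM + 1) was 0.23 with 6PPD, 0.21 with 6PPD-Q and 0.20 in controls, values that were not tested against each other. Among the 100 most counted genes, 16 were called, 11 of them with higher levels and 5 with lower levels with 6PPD-Q. Of all tested genes 19.7% were called, so the share was not above that of all genes.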
